A study of Mus musculus with 16 samples.

Results

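The circular RNAs (circRNAs) described here are those that the deposited table of mouse heart circRNAs types as intron, circles that the authors placed wholly within an intron of a gene. They were chosen by that label alone. The table lists 3331 of them among 68854 circRNAs, and 450 had a count in at least 1 of 16 libraries, of 40381 circRNAs with a count. The other 2881 were listed at 0 throughout, so 13.5% of the intronic entries had a count, against 70.5% of the 50032 exonic ones. The 450 came from 337 host genes and held 6759 counts, 0.245% of all circRNA counts.

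Introns are normally removed as lariats, loops in which the 5′ end of the intron is bonded to an adenosine called the branch point, and the enzyme DBR1 opens these loops so that the intron can be degraded. Some escape, and what remains is a circle that runs from the 5′ splice site to the branch point and stops short of the 3′ splice site. Other circles form by back-splicing, in which a downstream splice donor is joined to an upstream acceptor, and such a circle can be assigned to an intron when its exon is not in the annotation used.

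Hearts came from male C57BL/6 mice. Libraries were 5 of MIRI+AICAR, 5 of MIRI+Compound C, 3 of MIRI and 3 of Sham. In all groups but Sham the left anterior descending coronary artery was tied for 30 min, and hearts were taken after 1 week of reperfusion, a model of infarction with restored flow that the labels call MIRI. Compound C is an inhibitor of AMPK, an energy-sensing kinase, and AICAR is an activator of it. The labels used here give no dose or timing for either. The design names 32 mice, 8 in each of the 4 groups, without saying how they became 16 libraries or whether replicates were separate mice, and p-values therefore describe only how these libraries scatter, part of which can be technical. The label calls the sample cardiac muscle cell, but describes no isolation from the heart. Of 10 cardiomyocyte genes, 10 had circRNA counts, and the 8 that passed the filter on low counts summed to 23070 to 41480 CPM (counts scaled to library size, at a common total) per library, against 1108 to 3337 CPM for 11 of 12 leukocyte genes and 1854 to 4486 CPM for 6 of 10 endothelial genes.

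Circles that run from a 5′ splice site to just before a 3′ splice site can be read base by base where GENCODE holds a transcript that retains the intron. Those of 4 genes, out of 8 such circles with a count and a sequence, are shown because their ends show this layout. They are Dusp1, a phosphatase of MAP kinases (novel_circ_027206, chr17:26506674-26506984, minus strand, 311 bases), Actn4, an actin cross-linker (novel_circ_056169, chr7:28896258-28896875, minus strand, 618 bases), Rbm5, a splicing regulator (novel_circ_064708, chr9:107745270-107746018, minus strand, 749 bases) and Ppox, an enzyme of haem synthesis (novel_circ_002188, chr1:171279594-171279868, minus strand, 275 bases). Their mean counts per library were low, at 0.75, 0.625, 0.5625 and 0.25 in the same order. All coordinates are on GRCm38. Each first line gives 9 exon bases and the first 21 bases of the circle, with its first 2 bases in capitals. Each second line gives the last 30 bases of the circle as listed and the rest of the intron, with the last listed base in capitals. Sequences come from the GENCODE M21 transcripts.
Dusp1 start: acttcatagGTaaatggaataactatctgg
Dusp1 end: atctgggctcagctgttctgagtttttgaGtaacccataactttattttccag
Actn4 start: acaatggagGTgagcaccactgcccagggg
Actn4 end: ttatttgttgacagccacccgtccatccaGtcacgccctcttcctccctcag
Rbm5 start: gctcagcagGTatgacctgtccaagggcac
Rbm5 end: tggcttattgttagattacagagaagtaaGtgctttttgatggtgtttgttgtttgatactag
Ppox start: ggacctgagGTgacattgctcagaggtggt
Ppox end: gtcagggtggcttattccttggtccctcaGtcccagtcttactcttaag

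Each of the 4 begins with the GT of a splice donor, and each listed end is a G that follows an A, with 19 to 33 bases left to the end of the intron. Sequence was available for 19 listed circles of this layout, 8 of them with a count. All 19 began with GT, and 18 ended in G with T as the next base, as did 8 of the 8 with a count. The base before the last was an A in 13 of the 19, and in 7 of the 8 with a count. AG stood directly before the start in 18 of the 19 and in 8 of the 8. On the minus strand the lower coordinate is the 3′ end. Moved up by 1 base, it would put that G and T after the circle. Which base is the true end was not tested, nor was the part of the calling program's choice of junctions in these letters.

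The most abundant intronic circle came from Pakap, the locus that encodes paralemmin and an anchor protein of protein kinase A (novel_circ_046216, chr4:57709451-57710143, plus strand, 693 bases). Its 2 ends coincide with exon 7 of 9 of a Pakap transcript in GENCODE M21 that is annotated as a target of nonsense-mediated decay, and its start is also the start of the last exon of Palm2 transcripts. The label intron therefore does not hold for this circle under that annotation. Its junction is shown with the last 15 bases of the circle in lower case and the first 15 in capitals.
Pakap junction: cagacccggccccagCTATATACGCCATGG

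A circle assigned to Atg16l1, an autophagy gene, begins on the first base of Scarna6, a small Cajal body RNA gene inside the same intron, and covers 211 of its 265 bases (novel_circ_003636, chr1:87784556-87784766, plus strand). It is shown whole because all of it lies within that small RNA gene.
Atg16l1 circle: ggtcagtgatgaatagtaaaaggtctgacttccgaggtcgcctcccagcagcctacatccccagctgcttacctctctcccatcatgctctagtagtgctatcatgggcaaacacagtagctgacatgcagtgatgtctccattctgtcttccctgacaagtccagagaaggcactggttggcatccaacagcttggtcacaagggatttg

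Set against the annotation as a whole, 98 of the 450 circles (21.8%) overlapped an exon on their own strand, 30 lay inside an exon of another transcript, 3 equalled an annotated exon and 6 overlapped a small RNA gene. For 438 the host gene of the table was also the gene of the intron. One circle, assigned to Gpm6a, lay in no annotated intron. For the other circles, most of the 450, no exon of GENCODE M21 on the same strand was touched.

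The intronic circles spanned less of the genome than exonic circles, but their listed spliced length was greater. Their median length was 921.5 bases, with quartiles at 465.5 and 2959 and a range from 146 to 137366, and 38 were longer than 10000. The listed spliced length equalled the genomic length for all 450, so no splicing within the circle was assumed by the authors. Exonic circles spanned a median of 8447 bases of genome and had a median spliced length of 526. Intronic entries listed at 0 were shorter still, with a median of 419 bases.

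Most intronic circles were rare. Of the 450, 285 (63.3%) had counts in 1 library only, against 34.0% of exonic circles with a count, and 9 had counts in all 16 libraries. The total over all libraries was 2 or 3 counts for 266 of them. The smallest count above 0 in the table is 2, and none is 1, so a circle listed at 0 can have had 1 read. A true count of 0 allows an expected count of up to 3 (95% bound), and a listed 0 that had 1 read allows more. A mean of at least 1 count per library was reached by 58 (12.9%), against 36.6% of exonic circles. The 3 most abundant held 32.6% of intronic counts and the 10 most abundant held 52.0%.

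Of 337 host genes, 276 had 1 intronic circle and 61 had 2 or more. For 57 genes the intronic circles were the only circRNAs with a count, among them Kcnd3, which encodes the Kv4.3 channel of the transient outward potassium current, Stox2, Arhgap6 and Exoc7. These 4 are among the more abundant, while many of the 57, such as Calr, Gga3 and Rxrg, rested on 2 counts in all. For those, circles of other types can have gone unseen. For 21 more, intronic circles held most of the gene's circRNA counts beside circles of other types, such as Akap1, a mitochondrial anchor of protein kinase A, with 98.1%, and Rbfox1 with 76.8%. The median host gene had 3.80% of its circRNA counts in intronic circles. The 5 genes with the most intronic circles were Rbfox1 with 10, Galnt18, a glycosyltransferase gene, with 8, the scaffold protein genes Magi2 and Magi1 with 7 each, and the growth hormone receptor gene Ghr with 6.

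By position, the 450 circles fell into 2 main layouts. In 337 (74.9%) both ends lay inside the intron, and these held 90.3% of intronic counts. Their introns were long, with a median of 87101 bases, and the circle covered a median of 3.27% of the intron. In 87 (19.3%) the 5′ end was the first base of the intron. Their introns had a median of 565 bases, of which the circle covered a median of 94.8%, and these circles held 8.52% of intronic counts. Another 23 covered an intron exactly from end to end, and 2 ended on the last base of an intron.

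The 87 circles that began at a 5′ splice site ended a median of 26 bases before the 3′ splice site, and 75 ended 15 to 50 bases before it, the window taken here because branch points usually lie there. These 75 are called lariat-like, for their layout alone. The other 12 ended 1 to 2806 bases before the splice site. Of 337 circles with both ends inside the intron, 9 ended in that window. The 75 came from 69 host genes, had a median length of 483 bases and held 549 counts. In 44 of them the counts came from 1 library. Of the 31 circles that began at a 5′ splice site and had counts in at least 2 libraries, 31 ended in the window.

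Those with a mean of at least 1 count were 6. The circle of Akap8, a nuclear anchor of protein kinase A (novel_circ_027284, chr17:32312401-32314110), had 4.31 counts per library and left 27 bases of its intron. That of Exoc7, a subunit of the exocyst (novel_circ_010687, chr11:116294490-116294741), had 3.31 counts and left 20 bases. The circle of Myh9, the heavy chain of a nonmuscle myosin (novel_circ_022820, chr15:77764017-77764299), had 2.62 counts and left 16 bases. That of Atp2a2, which encodes the calcium pump of the sarcoplasmic reticulum (novel_circ_049298, chr5:122457652-122458087), had 2.50 counts and left 22 bases. The circles of Mdh1, a malate dehydrogenase gene, and of the stress-induced transcription factor gene Atf3 had 1.44 and 1.06 counts, in 4 and 2 libraries. All 6 lay on the minus strand.

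The lariat-like layout was uneven between the strands in this table. Of the 75 circles, 66 were on the minus strand and 9 on the plus strand, while all 450 intronic circles had 249 on the minus and 201 on the plus strand. Among entries listed at 0, 132 of 151 that began at a 5′ splice site were on the minus strand as well. Circles of the same layout on the plus strand stood under another label. The type exon_intron held 166 plus-strand circles, 38 with a count, whose listed start was the last base of the exon, 1 base before the intron, and whose end lay 15 to 50 bases before the 3′ splice site. Those 38 had 639 counts. The median end over the 166 listed was 27 bases before the splice site, a value bounded by the window that chose them. Circles with this start that ended outside the window were not counted. The most abundant were from Ndufs7, a subunit of respiratory complex I (novel_circ_007656, chr10:80256012-80256612, 17.8 counts per library), Fyttd1, an mRNA export factor (novel_circ_026251, chr16:32898470-32898849, 6.69) and Etfb, an electron transfer flavoprotein gene of fatty acid oxidation (novel_circ_058097, chr7:43452499-43452775, 3.50). On the minus strand the type exon_intron held 2 such circles with a start 1 base before the intron, both listed at 0, and 17 that began on the first intron base of one transcript, 3 of them with a count.

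**Figure D1:**
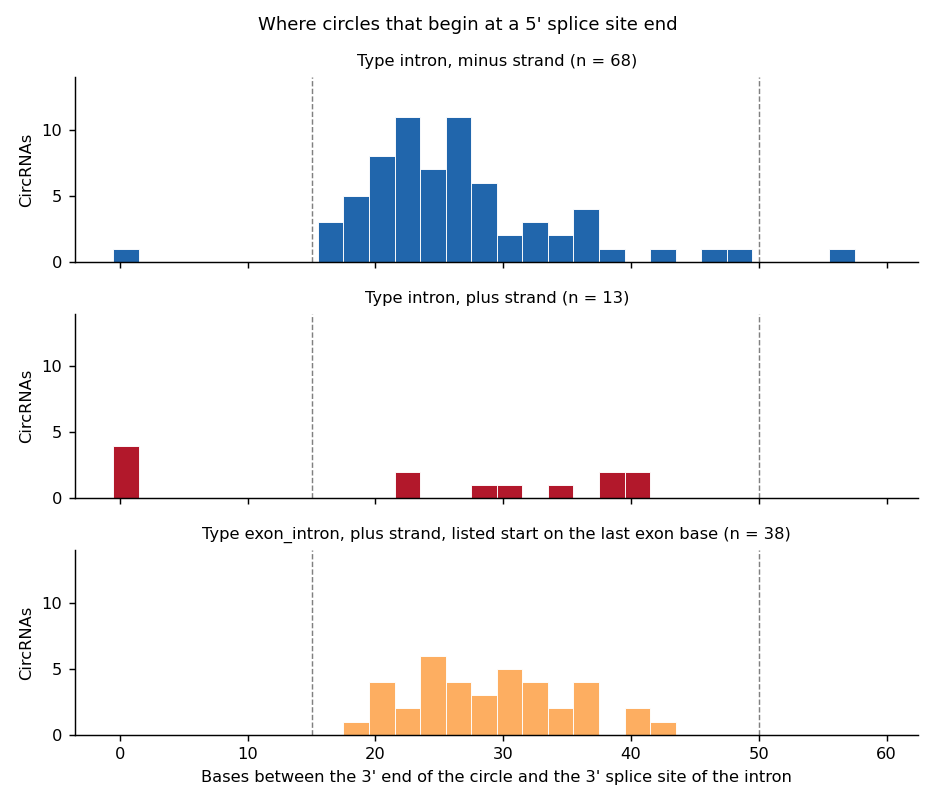
Histograms of the distance in bases from the 3′ end of a circle to the 3′ splice site (bins of 2 bases, circles up to 60 bases away), for circles with a count that begin at a 5′ splice site: type intron on the minus strand (top), type intron on the plus strand (middle) and type exon_intron on the plus strand with a listed start on the last exon base (bottom, the 38 chosen to end between the dashed lines at 15 and 50 bases). The minus-strand intronic circles gather between the dashed lines (66 circles), while 9 plus-strand intronic circles lie there. The 38 exon_intron circles lie there by choice, so the bottom panel shows only their spread within the window.

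Of the 17 plus-strand exon_intron circles of this layout with a transcript sequence, 17 began with GGT, an exon G followed by the GT of the intron, and 17 had GT directly after their listed end. The last base was A in 11 of them. For circles with both ends inside an intron, the letters before the start and after the end were read in the 156 listed circles with a transcript sequence. As listed, AG before and GT after stood at 4 of 70 plus-strand and 4 of 86 minus-strand circles. With the lower coordinate moved up by 1 base, they stood at 65 and 82. Of those with a count the pattern was present as listed in 4 of 8 and 4 of 10, and after the move in 3 of 8 and 6 of 10. Among these circles the move brought the pattern mainly to those listed at 0. For lariat-like circles on the minus strand it would also reach those with a count. Of 8 with a count and a sequence, 8 had AG before the start and 8 would have GT after the moved end. Of exonic circles with a count, 96.5% start on a GENCODE exon start and 0.320% do so once moved by 1 base.

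The 10 most abundant intronic circles came from 7 genes, and all had both ends inside an intron. After Pakap, with a mean of 48.2 counts per library, came Rbfox1, a splicing regulator of heart, muscle and brain (novel_circ_025761, chr16:5955486-5956863, plus strand, 1378 bases, 44.8 counts). Next was Cacna1c, the pore subunit of the cardiac L-type calcium channel (novel_circ_053666, chr6:119002576-119005081, minus strand, 2506 bases, 44.7 counts). Kcnd3 (novel_circ_043412, chr3:105554247-105555327, plus strand, 1081 bases) had 20.9 counts and Akap1 (novel_circ_009928, chr11:88849426-88850194, minus strand, 769 bases) had 16.2. Then came 3 more circles of Rbfox1 with 9.94, 9.56 and 8.19 counts, 1 of Ghr (novel_circ_021980, 7662 bases) with 9.31 and 1 of Stox2 (novel_circ_060155, 3876 bases) with 7.94. Among the 14 circles with a mean of at least 5 counts the longest were those of Ghr, Magi2 (novel_circ_050200, 6483 bases) and Rbfox1 (novel_circ_025755, 4288 bases), and the shortest were those of Rbfox1 (novel_circ_025763, 616 bases), Lbr, the lamin B receptor gene (novel_circ_002384, 632 bases), and the growth factor gene Pdgfd (novel_circ_065031, 674 bases).

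Circles of 1 gene often shared an end. This was so for 89 of the 450, and 67 shared an end with a circRNA of another type. In Rbfox1, 7 of 10 circles ended at the same base, 5956863 on chromosome 16, and held 1227 of its 1237 intronic counts. They were 616 to 16333 bases long and lay within an intron of 287740 bases. The other 3 ended together 37421 bases further on, and their starts were the same as those of 2 of the first 7 or 1 base from another, at 0.125 to 0.250 counts per library. A circle typed intergenic (novel_circ_025751, chr16:5848749-5956863, plus strand, 2 counts in all) ended at the same base as the 7. Among the 11 Rbfox1 circles of other types, the 1 exon_intron circle (novel_circ_025765, chr16:6154206-6173667, 0.625 counts per library) began in the same intron and ended just past it, and the 10 exonic ones started at base 7224311 or further on. Shared ends were also seen in Galnt18, Ghr, Magi2 and Magi1, where 3 circles of each gene had 1 end in common.

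**Figure D2:**
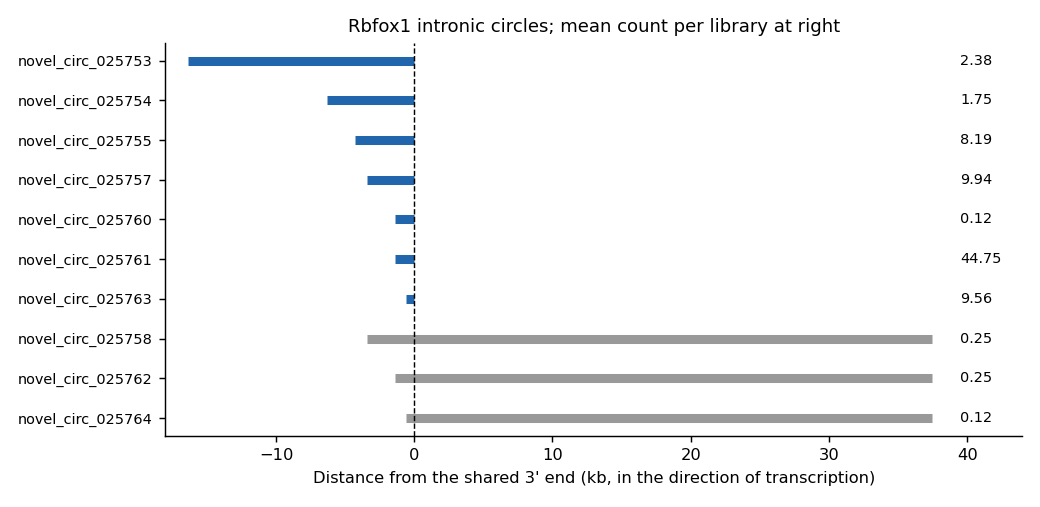
Map of the 10 intronic circles of Rbfox1, drawn to scale as distance in kb from their shared 3′ end in the direction of transcription. Blue bars end at the shared base (dashed line), grey bars do not, and the number at the right is the mean count per library: 7 circles share the end, led by novel_circ_025761 with 44.75.

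Intronic circles made up 0.178% to 0.254% of counts in MIRI+AICAR libraries (mean 0.209% ± 0.0291, SD, n = 5). The share was 0.225% to 0.288% in MIRI+Compound C (0.263% ± 0.0306, n = 5), 0.196% to 0.300% in MIRI (0.257% ± 0.0542, n = 3) and 0.256% to 0.279% in Sham (0.271% ± 0.0129, n = 3). MIRI+AICAR had the lowest mean. Its range overlapped those of MIRI+Compound C and MIRI and lay just below that of Sham. Total counts were 178086 to 240889 in MIRI+AICAR, 140677 to 187227 in MIRI+Compound C, 124023 to 173011 in MIRI and 119948 to 163551 in Sham. For a single library the 95% Wilson interval, which covers counting error only, was 0.160% to 0.199% at the lowest share (MIRI+AICAR replicate 1) and 0.274% to 0.328% at the highest (MIRI replicate 1). No p is given for these shares, which sum over all the intronic circles. Rbfox1 alone made up 0.0317% ± 0.00933 of counts in MIRI+AICAR, 0.0592% ± 0.0102 in MIRI+Compound C, 0.0333% ± 0.0168 in MIRI and 0.0530% ± 0.0117 in Sham. Without Rbfox1 the shares were 0.177% ± 0.0301 in MIRI+AICAR, 0.204% ± 0.0219 in MIRI+Compound C, 0.224% ± 0.0502 in MIRI and 0.218% ± 0.0232 in Sham.

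After thinning every library to 119948 counts, 51 to 87 kinds of intronic circle were left in MIRI+AICAR (68.4 ± 15.9, SD, n = 5), 52 to 72 in MIRI+Compound C (63.8 ± 10.3, n = 5), 52 to 103 in MIRI (76.7 ± 25.5, n = 3) and 58 to 66 in Sham (62.7 ± 4.16, n = 3). All groups overlapped. Thinning can leave a count of 1, which the table never lists, while Sham replicate 1 was the smallest library and was not thinned. The number with any count left therefore favours deeper libraries, and MIRI+AICAR had the highest totals. With at least 2 counts left, the means were 45.4 in MIRI+AICAR, 50.2 in MIRI+Compound C, 64.67 in MIRI and 56 in Sham. The highest number was in MIRI replicate 1, which also held 42 of the 285 circles seen in 1 library, against 6 to 31 in each of the others. MIRI replicate 1 and MIRI+AICAR replicate 5 stood apart by the circRNAs of 5 platelet and megakaryocyte genes, of 8 listed, which summed to 16260 and 4957 CPM in them and to 1141 to 1820 CPM in the other 14 libraries. The defining genes Itga2b, Pf4 and Gp1bb had no circRNA count. The part of these libraries' composition in the number of intronic circles was not tested. In these bulk libraries fewer cells of a type and less RNA per cell cannot be told apart. Without both libraries the mean number with any count left was 63.75 in MIRI+AICAR and 63.5 in MIRI.

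Circles from a 5′ splice site to 15 to 50 bases before the 3′ splice site had 204 ± 106 unscaled CPM (counts over the library total, with no TMM factor) in MIRI+AICAR (95.2 to 367, SD, n = 5), 153 ± 11.2 in MIRI+Compound C (140.2 to 164, n = 5), 238 ± 41.3 in MIRI (191 to 266, n = 3) and 214.5 ± 53.8 in Sham (183 to 277, n = 3). With the plus-strand exon_intron circles of the same layout added, they had 434 ± 109 unscaled CPM in MIRI+AICAR, 372 ± 50.4 in MIRI+Compound C, 474 ± 75.2 in MIRI and 454 ± 56.1 in Sham. MIRI+Compound C had the lowest mean on both counts. Alone, its intronic circles lay below each MIRI and Sham library and inside the range of MIRI+AICAR, and with the others added all groups overlapped.

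**Figure D3:**
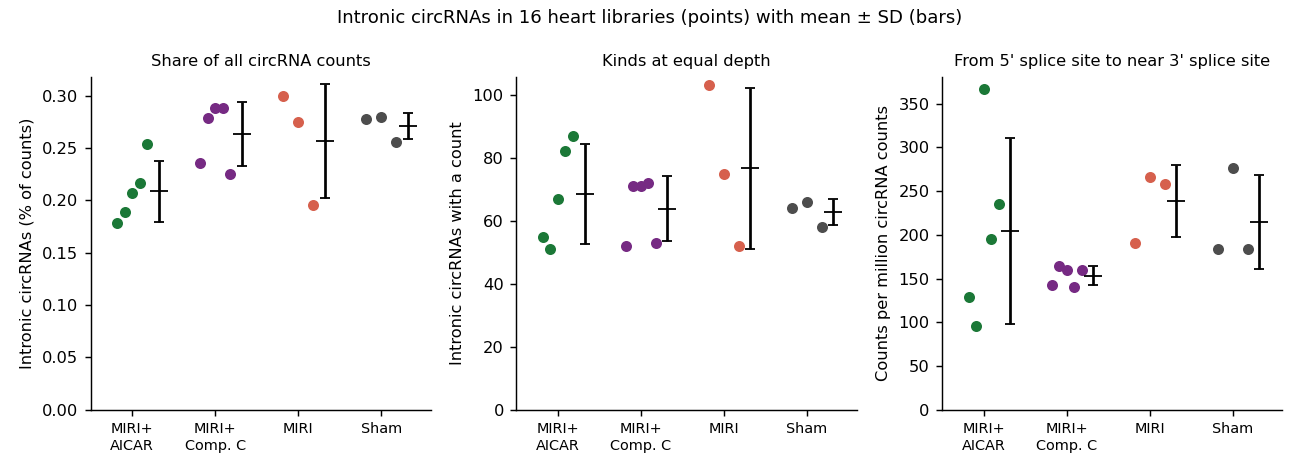
Values per library (points) with the mean and SD of each group (black bars), from left to right the intronic share of all circRNA counts in percent, the number of kinds of intronic circRNA left when libraries are thinned to 1 depth, and the unscaled CPM from circles that run from a 5′ splice site to 15 to 50 bases before the 3′ splice site. MIRI+AICAR had the lowest mean share, 0.209%, and the groups overlap in the number of kinds.

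Of the 450 circles, 26 passed the filter on low counts and were tested among 7917 circRNAs of all types. For MIRI against Sham, which asks about injury, edgeR's quasi-likelihood test called 0 of 26 at a Benjamini-Hochberg adjusted p under 0.05, beside 0.0253% of all tested circRNAs, and DESeq2 called 0. At an unadjusted p under 0.05 there was 1 of 26, beside 6.82% of all. The 1 was a circle of Zfc3h1, a gene of nuclear RNA decay (novel_circ_008033, chr10:115386961-115390436, plus strand), with 131, 44.7 and 0 CPM in MIRI against 17.6, 14.6 and 0 CPM in Sham (log2 2.48, SE 1.05, edgeR adjusted p = 0.602). Its level rested on MIRI replicate 1, and the groups overlapped. In MIRI+AICAR the same circle was highest in replicate 5, at 120 CPM, against 25.2 to 50.1 CPM in the other 4. These 2 libraries are those with high levels of platelet-type circRNAs, whose part in this level was not tested, and without both the log2 difference between MIRI and Sham was 1.18.

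Other members with the smallest p for MIRI against Sham were higher for Zswim6 (novel_circ_017701, log2 1.85, SE 1.10) and Magi1 (novel_circ_053311, log2 1.36, SE 0.91) and lower for 3 circles of Rbfox1, novel_circ_025757, novel_circ_025761 and novel_circ_025755, with log2 values of -1.03, -0.54 and -0.88. Their edgeR adjusted p ran from 0.800 to 0.890. Of the 26, 11 lay above 0 and 15 below, while 52.1% of all tested circRNAs lay above 0. The median log2 of the 26 was -0.27, beside 0.03 for all tested circRNAs. Summed by host gene, the intronic counts of 27 genes were tested, edgeR called 0 of them, beside 0.0253% of all rows, and DESeq2 called 0, while 2 had an unadjusted p under 0.05, beside 6.77%.

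For MIRI+AICAR against MIRI, which asks about activating AMPK in injured hearts, edgeR called 0 of 26, beside 0.0253% of all, DESeq2 called 0, and 1 had an unadjusted p under 0.05, beside 4.9%. That was the Stox2 circle novel_circ_060155, with 37.4, 25.2, 35.1, 28.9 and 17.98 CPM in MIRI+AICAR, against 51.1, 82.99 and 60.7 CPM in MIRI. The values of the groups did not overlap, MIRI+AICAR being lower, but the difference did not pass (log2 -1.15, SE 0.45, edgeR adjusted p = 0.886). A second Stox2 circle (novel_circ_060156, 653 bases), whose lower coordinate is 1 base from that of the first, had 14.5 CPM in 1 of 5 MIRI+AICAR libraries and 0 in the others, against 0, 38.3 and 34.7 CPM in MIRI (log2 -2.64, SE 1.47, adjusted p = 0.996 in edgeR). The circle of Akap1 had a log2 of -0.48, and those of Rbfox1 (novel_circ_025757), the phosphatase gene Ppm1h (novel_circ_008115) and Kcnd3 had 0.54, 1.01 and 0.30, all at an edgeR adjusted p of 0.999. Of the 26, 7 lay above 0 and 19 below, while 53.2% of all tested circRNAs lay above 0. The median log2 of the 26 was -0.16, beside 0.035 for all tested circRNAs. By host gene sums edgeR and DESeq2 each called 0 of 27, beside 0.0253% in edgeR, and 1 had an unadjusted p under 0.05, beside 4.94%.

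For MIRI+Compound C against MIRI, which asks about inhibiting AMPK, edgeR called 0 of 26, beside 0.0884% of all, and DESeq2 called 0. At an unadjusted p under 0.05 there were 2, beside 6.47%, and both were circles of Rbfox1. Rbfox1 novel_circ_025761 had 285, 373, 497, 444.5 and 380 CPM in MIRI+Compound C, against 131, 326 and 182 CPM in MIRI (log2 0.88, SE 0.29, edgeR adjusted p = 0.402). The groups overlapped through MIRI replicate 2, the highest MIRI library. The second, novel_circ_025755, had 74.9, 99.6, 48.5, 105 and 65.7 CPM in MIRI+Compound C, against 21.9, 70.2 and 17.3 CPM in MIRI (log2 1.03, SE 0.49, edgeR adjusted p = 0.749). Also among the smallest p were Rbfox1 novel_circ_025757 (log2 1.01), which was higher, and the circles of Zfc3h1 (log2 -1.41), Magi1 (log2 -1.31) and Zswim6 (log2 -1.15), which were lower, with edgeR adjusted p from 0.798 to 0.948. Of the 26, 13 lay above 0 and 13 below, while 50.9% of all tested circRNAs lay above 0. The median log2 of the 26 was -0.02, beside 0.01 for all. By host gene sums edgeR called 0 of 27, beside 0.0884%, DESeq2 called 0, and 2 had an unadjusted p under 0.05, beside 6.48%.

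For MIRI+AICAR against MIRI+Compound C, which sets activation of AMPK against its inhibition, edgeR called 0 of 26, beside 0.556% of all, and DESeq2 called 1. The share of all circRNAs that DESeq2 called is not given. At an unadjusted p under 0.05 there were 5, beside 8.51%: 3 circles of Rbfox1 and 1 each of Magi2 and Cacna1c, all lower in MIRI+AICAR. Of the 26, 7 lay above 0 and 19 below, while 52.4% of all tested circRNAs lay above 0. Their median log2 was -0.45, beside 0.03 for all tested circRNAs. Those below include Rbfox1 circles that share an end and are not independent. Both comparisons with MIRI and this one share libraries.

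Rbfox1 novel_circ_025761 had 118, 182.5, 291, 284.5 and 180 CPM in MIRI+AICAR, against 285, 373, 497, 444.5 and 380 CPM in MIRI+Compound C. The highest MIRI+AICAR library lay just above the lowest MIRI+Compound C library, and the other values did not overlap. The difference did not pass in edgeR (log2 -0.89, SE 0.24, adjusted p = 0.0982, range 0.0267 to 0.265 over 18 alternatives) and passed in DESeq2 (adjusted p = 0.0267). In Sham it had 220, 357 and 358 CPM. Rbfox1 novel_circ_025755 had 18.7, 31.5, 30.1, 38.6 and 24.0 CPM in MIRI+AICAR, against 74.9, 99.6, 48.5, 105 and 65.7 CPM in MIRI+Compound C (log2 -1.42, SE 0.42, edgeR adjusted p = 0.143). All 5 MIRI+AICAR values lay below the 5 of MIRI+Compound C. The third, novel_circ_025763, had a log2 of -1.26 (SE 0.42, edgeR adjusted p = 0.233).

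The 10 Rbfox1 circles together had 37, 56, 100, 93 and 47 counts in MIRI+AICAR libraries, 65, 108, 129, 129 and 79 in MIRI+Compound C, 40, 91 and 27 in MIRI, and 49, 82 and 105 in Sham. In CPM they averaged 363 ± 112 in MIRI+AICAR (SD, n = 5), 662 ± 132 in MIRI+Compound C (n = 5), 369 ± 187 in MIRI (n = 3) and 579 ± 140 in Sham (n = 3). As a share of all counts, each MIRI+AICAR library (0.0208% to 0.0431%) was below each MIRI+Compound C library (0.0462% to 0.0696%). The log2 difference was -0.86 (SE 0.22) and did not pass in edgeR (adjusted p = 0.0677, range 0.00316 to 0.217 over 18 alternatives), but passed in 6 of the 18, among them DESeq2 (adjusted p = 0.0166). MIRI+Compound C against MIRI gave a log2 of 0.82 (SE 0.26, edgeR adjusted p = 0.357, range 0.0179 to 0.845 over 16 alternatives). It passed in 2 of the 16, and the lowest adjusted p came without MIRI replicate 2, the highest MIRI library. MIRI against Sham gave -0.63 (SE 0.29, edgeR adjusted p = 0.683), and MIRI+AICAR against MIRI gave -0.036 (SE 0.26, edgeR adjusted p = 1). By host gene sums in MIRI+AICAR against MIRI+Compound C edgeR called 0 of 27, beside 0.556%, and 3 had an unadjusted p under 0.05, beside 8.5%. DESeq2 called 1, which was Rbfox1, and its share over all rows is not given.

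The 11 Rbfox1 circles of other types did not run the same way. They had 155 ± 56.9 unscaled CPM in MIRI+AICAR (SD, n = 5), 113 ± 24.8 in MIRI+Compound C (n = 5), 156 ± 69.4 in MIRI (n = 3) and 120 ± 39.2 in Sham (n = 3), and the groups overlapped. The difference between intronic and other circles of Rbfox1 was not tested. The circRNAs of other cell types' marker genes also differed in level between MIRI+AICAR and MIRI+Compound C. Of 10 endothelial genes, 6 summed to 1921 to 2813 CPM in MIRI+AICAR, against 2892 to 4486 CPM in MIRI+Compound C. Of 12 leukocyte genes, 11 summed to 2290 to 3337 CPM in MIRI+AICAR, against 1831 to 2298 CPM in MIRI+Compound C, and 8 of 10 cardiomyocyte genes to 24980 to 36020 CPM, against 24770 to 41480 CPM. Of 8 fibroblast genes, 5 summed to 959 to 1133 CPM in MIRI+AICAR, against 722 to 952 CPM in MIRI+Compound C, and of 7 mural genes, 3 summed to 907 to 1424 CPM, against 1428 to 1641 CPM. Single genes did not all run with these sums. The log2 difference was above 0 for 3 fibroblast genes and below for 2, and for mural genes above for 1 and below for 2. It was below 0 for 6 of 6 endothelial and 7 of 8 cardiomyocyte genes, and above 0 for 10 of 11 leukocyte genes. The endothelial gene Erg, the fibroblast genes Postn and Tcf21 and the mural genes Pdgfrb and Kcnj8 had no circRNA count, and of 7 erythroid genes none passed the filter. The part of these levels in the Rbfox1 values was not tested. Without MIRI replicate 1 and MIRI+AICAR replicate 5, the log2 difference of the Rbfox1 sum was -0.77 (edgeR adjusted p = 0.114).

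The Cacna1c circle had 262, 296, 200, 222 and 312 CPM in MIRI+AICAR, against 195, 460, 400, 327 and 343 CPM in MIRI+Compound C (log2 -0.43, SE 0.21, edgeR adjusted p = 0.567). In MIRI it had 336, 230 and 286 CPM, and in Sham 352, 233 and 236 CPM, and all 4 groups overlapped. The Magi2 circle novel_circ_050200 had a log2 of -0.84 in MIRI+AICAR against MIRI+Compound C (SE 0.37, edgeR adjusted p = 0.512). Those with positive values and the smallest p were Zfc3h1 (log2 1.34), Rbms3 (novel_circ_064882, log2 0.94) and Magi1 (log2 0.69), with edgeR adjusted p from 0.597 to 0.874.

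Summed by gene, the intronic circles of Magi2 had 8, 7, 15, 12 and 12 counts in MIRI+AICAR libraries, 12, 19, 13, 19 and 9 in MIRI+Compound C, 11, 14 and 8 in MIRI, and 10, 9 and 6 in Sham. Those of Ghr had 12, 11, 9, 17 and 17 counts in MIRI+AICAR, 11, 19, 19, 16 and 18 in MIRI+Compound C, 4, 20 and 10 in MIRI, and 11, 8 and 12 in Sham. Both were lower on average in MIRI+AICAR than in MIRI+Compound C, with overlapping groups, at a log2 of -0.64 (SE 0.29, edgeR adjusted p = 0.524) for Magi2 and -0.55 (SE 0.30, edgeR adjusted p = 0.655) for Ghr. Galnt18 averaged 42.1 ± 15.3 CPM in MIRI+AICAR (SD, n = 5), 33.2 ± 15.9 in MIRI+Compound C (n = 5), 46.5 ± 25.5 in MIRI (n = 3) and 85.1 ± 56.1 in Sham (n = 3). Magi1 averaged 36.5 ± 5.78 CPM in MIRI+AICAR, 36.2 ± 25.7 in MIRI+Compound C, 45.1 ± 13.4 in MIRI and 19.7 ± 6.49 in Sham. Sham was highest on average for Galnt18 and lowest for Magi1, and the edgeR adjusted p for these 2 genes was 0.875 or higher in the 4 comparisons.

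The Pakap circle had 318, 340, 301, 333 and 150 CPM in MIRI+AICAR, 367, 255, 333, 333 and 285 CPM in MIRI+Compound C, 277, 428 and 260 CPM in MIRI, and 247, 394 and 392 CPM in Sham. Of the 10 most abundant intronic circles it had the smallest range of values between groups, with log2 differences from -0.17 to -0.05 in the 4 comparisons and overlapping groups. The circRNAs of any type whose CPM followed it most closely were exonic circles of Ppp4r1, Nup98, Micall1, Amotl1 and Mau2, with a Spearman correlation of 0.879 to 0.832 over 16 libraries that share depth and composition. The Kcnd3 circle had 49.8, 138.5, 155, 106 and 192 CPM in MIRI+AICAR, 112, 199, 254, 154 and 73.0 CPM in MIRI+Compound C, 58.4, 147 and 104 CPM in MIRI, and 106, 131 and 149 CPM in Sham. Its groups overlapped in all comparisons.

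**Figure D4:**
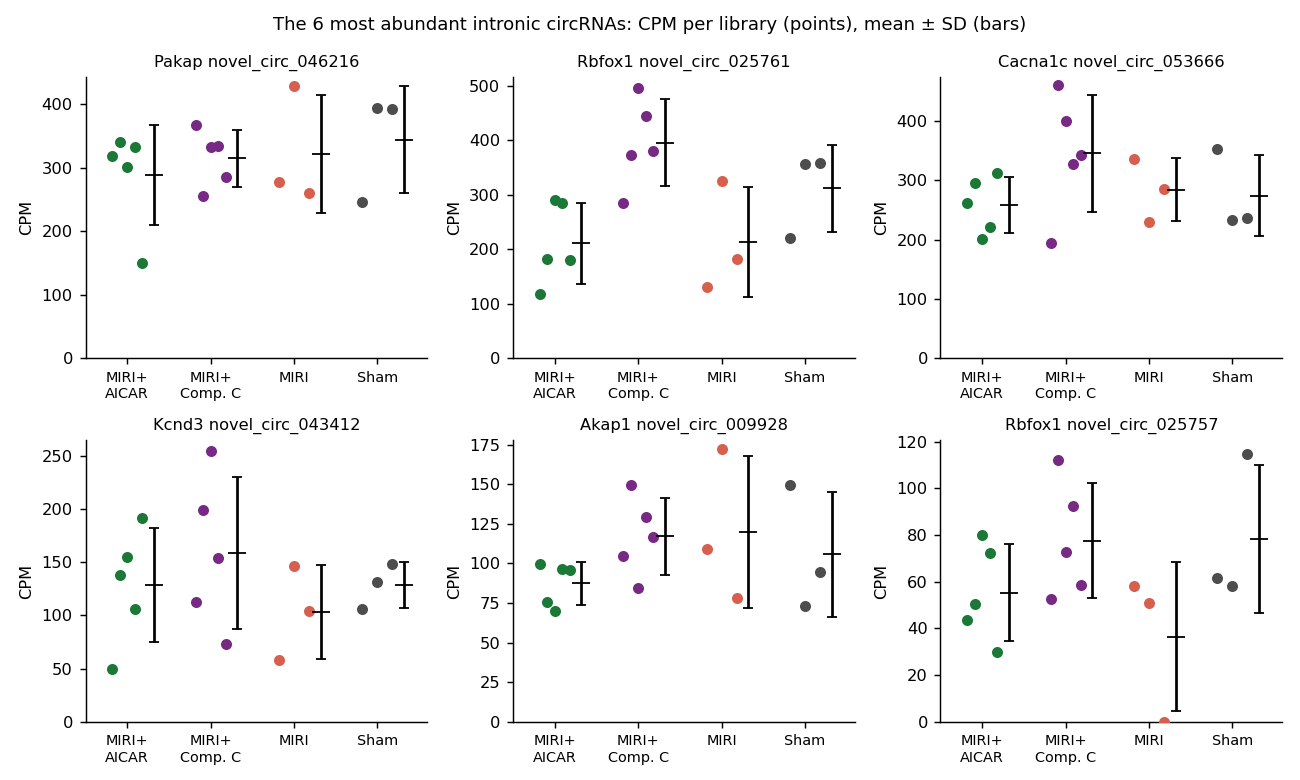
CPM (scaled to library size) of the 6 intronic circRNAs with the highest mean count in each library (points), with mean and SD of each group (black bars). The Rbfox1 circle novel_circ_025761 had its lowest means in MIRI+AICAR and MIRI, at 211 and 213 CPM, and its highest in MIRI+Compound C, at 396 CPM, while the Pakap circle overlapped between all groups.

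**Figure D5:**
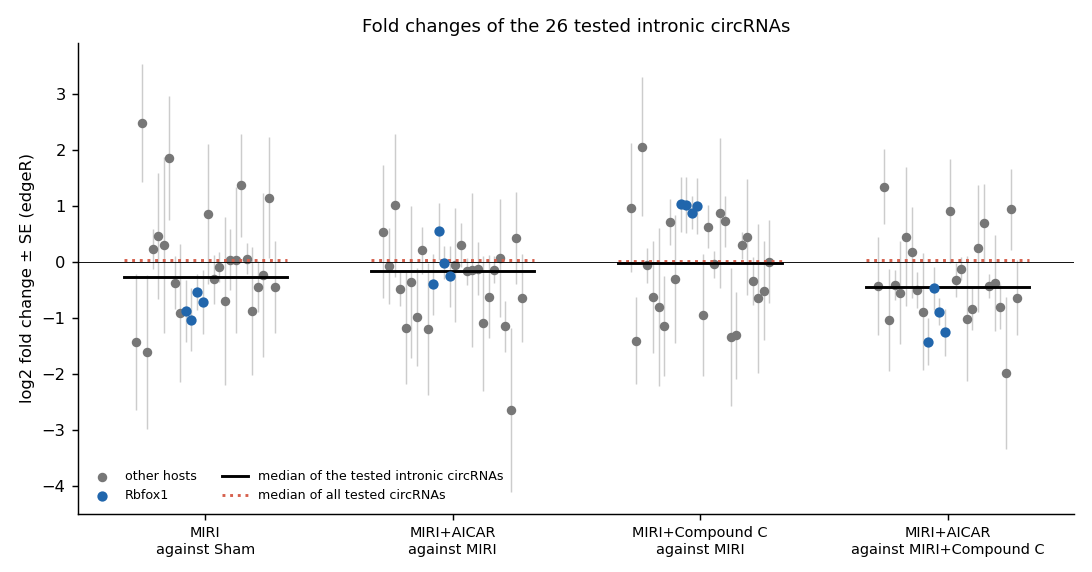
The log2 fold change with its standard error from edgeR for the 26 tested intronic circRNAs (points, Rbfox1 in blue) in the 4 comparisons, with the median of the 26 (black line) and of all 7917 tested circRNAs (red dotted line). None passed the adjusted threshold in edgeR, and the 4 Rbfox1 circles lie above 0 for MIRI+Compound C against MIRI and below 0 for MIRI+AICAR against MIRI+Compound C and for MIRI against Sham.

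The Atg16l1 circle over Scarna6 did not pass the filter on low counts and was not tested. It had 0, 0, 3, 0 and 0 counts in MIRI+AICAR, 0, 3, 4, 0 and 2 in MIRI+Compound C, 2, 0 and 0 in MIRI, and 8, 3 and 9 in Sham. Sham was the group in which all libraries had counts.

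Among 35 genes that regulate splicing, debranching and circle formation, 17 passed the filter by the summed counts of all their circRNAs. In edgeR 0 of 17 passed in any of the 4 comparisons, beside 0.162% of 3699 host genes for MIRI against Sham, 0.027% for MIRI+AICAR against MIRI, 0.595% for MIRI+Compound C against MIRI and 1.95% for MIRI+AICAR against MIRI+Compound C. At an unadjusted p under 0.05 there were 1, 0, 2 and 1 of the 17 genes in these comparisons, in the same order. The share of all 3699 host genes at that threshold is not given, so these numbers show neither an excess nor a lack. For MIRI against Sham this was Celf2, a splicing factor gene (log2 1.45, SE 0.44, edgeR adjusted p = 0.195). For MIRI+Compound C against MIRI they were Mbnl2, a splicing factor gene (log2 0.39, edgeR adjusted p = 0.434), and Rbfox1 (log2 0.51, SE 0.22, edgeR adjusted p = 0.409), and for MIRI+AICAR against MIRI+Compound C it was Rbfox1 (log2 -0.59, SE 0.18, edgeR adjusted p = 0.101). Host genes of intronic circles in this list were Rbfox1, Rbfox2, Rbm20, Rbm5 and Celf2. Dbr1, the debranching enzyme gene, had no circRNA count, which says nothing of its messenger RNA, since linear RNA had been digested. Of the marker genes, 5 of 10 for cardiomyocytes hosted intronic circles (Cacna1c, Ryr2, Myh6, Slc8a1 and Tnnt2), 2 of 8 for platelets and megakaryocytes (Med12l and Trpc6) and 1 of 10 for endothelium (Pecam1). Most of these rested on few reads over the 16 libraries. Tnnt2, Med12l, Trpc6 and Pecam1 had 2 intronic counts each, Ryr2 had 7, Myh6 10 and Slc8a1 21, while Cacna1c had 729. None of the 12 leukocyte, 8 fibroblast, 7 mural and 7 erythroid genes hosted an intronic circle with a count. Of all 6886 host genes with a circRNA count, 337 (4.89%) had an intronic circle with a count.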

How the data were processed

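Circular RNA was measured in 16 mouse heart libraries made after RNase R digestion and rRNA depletion, by stranded dUTP sequencing, per the labels' protocols. The authors deposited whole-number counts of back-splice reads per circRNA, named as CIRI output per the file headers, with coordinates, type and host gene. The submitters' processing notes name mm9, but 96.5% of exonic circRNAs with a count start on a GENCODE M21 exon start, so GRCm38 was used. CIRI's version and settings were not given in any source used.

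Counts were fitted with edgeR 4.0.16 (R 4.3.3) in 1 quasi-likelihood model of 4 groups and 16 libraries, with TMM scaling and Benjamini-Hochberg adjustment over all 7917 circRNAs that passed filterByExpr (minimum count 5, minimum total 15). Those circRNAs held 87.9% to 91.2% of the counts per library, and the totals were 119948 to 240889. CPM divide counts by the TMM-scaled total of tested circRNAs, and unscaled CPM divide them by the total of all circRNAs. Host genes were tested by summed intronic counts (7918 rows) and by all their circRNAs (3699 genes). Simulated 4-fold changes between MIRI and Sham were recovered for 59.1% of 186 circRNAs among 6984 tested, with 8 false calls. The simulation gave all circRNAs 1 common spread between libraries (dispersion 0.063) and changed circRNAs of any type. The rate for the 26 tested intronic circles was not estimated and can be lower. DESeq2 1.42.0, other scalings, filters, a replicate block and left-out libraries were tried. Leaving out MIRI replicate 1 with MIRI+AICAR replicate 5 was chosen after seeing the data.

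Named circles are the 10 with the highest mean count, the called ones and the 3 higher and 3 lower with the smallest p per comparison, the 5 host genes with most intronic circles, and the 3 longest and 3 shortest with a mean count of at least 5. The sequences of circles at 5′ splice sites and the Atg16l1 circle were picked after values were seen, as were the strand comparison and the exon_intron circles. No genome sequence was used, so the other abundant circles are given by position. The members and lists were chosen with earlier results of these data known. Wilson intervals and floors cover counting error only.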

Additional observations from a re-analysis of the deposited data

Results flagged for a closer look

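Among 38 groups of 5 libraries, for single intronic circRNAs and their summed measures, 4 had 1 library far from the other 4 by Dixon's test. Its cut-off flags about 0.05 of groups when values are normally distributed. That rate does not hold for sparse counts, where 1 library above 0 beside 4 at 0 is always flagged. The Pakap circle (novel_circ_046216) was at 149.8 CPM in MIRI+AICAR replicate 5, against 300.6 to 339.8 CPM in the other 4 libraries. The Zfc3h1 circle (novel_circ_008033) was at 119.9 CPM in the same library, against 25.17 to 50.11 CPM in the others. That library also had the second highest level of platelet-type circRNAs, whose part in either value was not tested. The Ghr circle (novel_circ_021980) was at 62.22 CPM in MIRI+Compound C replicate 2, against 78.74 to 82.39 CPM in the others. The Stox2 circle novel_circ_060156 was at 14.47 CPM, 3 counts, in MIRI+AICAR replicate 4 and at 0 in the others.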

How the results depend on the processing

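Of 607 recomputed values of 50 results, 565 kept their direction and their side of the threshold or stayed within the spread between replicates. For single intronic circRNAs in MIRI+AICAR against MIRI+Compound C, where edgeR called 0, a replicate block gave 1 call, DESeq2 1 and a fit of only the 2 groups 2, all circles of Rbfox1. For host gene sums in the same comparison RLE factors, no scaling, no filter, the replicate block, DESeq2 and the 2 groups alone gave 1 call each, Rbfox1. For sums in MIRI+Compound C against MIRI, no filter gave 1, and leaving out libraries gave 0 to 1, the 1 being without MIRI replicate 2. The cause of these moves was not tested. For none of these settings is the share of all rows called given, so the calls cannot be set against it. Same-numbered libraries correlated at -0.022 to 0.076 in their deviations from group means (median 0.0085, 20 pairs), against -0.074 to 0.057 for other pairs (median 0.001). None passed 0.1, but no other pair came near it, so that cut-off could not show a pairing. Libraries numbered 1 correlated at 0.015 to 0.076, with the highest values of all pairs. Whether the numbers pair libraries cannot be told from this. Of 26 splicing regulators tested without a filter, 1 was called for MIRI against Sham and 1 for MIRI+AICAR against MIRI+Compound C. The share of all host genes called without a filter is not given.

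In MIRI+AICAR against MIRI the Kcnd3 value of 0.30 reversed to -0.136 without MIRI replicate 1 and MIRI+AICAR replicate 5, and ran from -0.136 to 0.71 over left-out libraries. The Rbfox1 sum of -0.036 reversed to 0.025 without a filter and ran from -0.252 to 0.499 over left-out libraries, so its direction was not settled.

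Counting only circRNAs past the filter, the intronic share was 0.1544% in MIRI+AICAR, 0.2109% in MIRI+Compound C, 0.1743% in MIRI and 0.2018% in Sham. The Sham share was 0.2844% of exonic counts and 0.2396% without the Pakap circle. Kinds with at least 2 counts after thinning averaged 45.4 in MIRI+AICAR, 50.2 in MIRI+Compound C, 64.67 in MIRI and 56 in Sham, so that MIRI+AICAR was lowest, while with any count it stood above MIRI+Compound C and Sham. The median length was 1752 bases at a mean count of at least 1 and 1378 bases weighted by counts. Of circles at that mean count 10.34% began at a 5′ splice site. Depth limits the rest: 424 of 450 circles were too rare to test.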
